A study of Homo sapiens with 9 samples.

Results

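MFAP5 encodes microfibril-associated protein 5, a secreted glycoprotein of the extracellular matrix, and was measured here by 1 of 60541 RNA probes on an epitranscriptomic array, with 1 spot on each array. It was selected on the methylation levels that the authors deposited, which were higher than in siNC with both siRNAs against ALKBH5, and its Sup values in the same contrasts were also known. Its values against siNC are therefore given as a description, with no test. In RefSeq (GRCh38.p14) the protein-coding MFAP5 gene, gene ID 8076, lies on chromosome 12 from 8645943 to 8662826, a length of 16884 bases. The array probe is ASHG19AP1B10362956811, known through the match of its deposited levels to the study's list. Its sequence and its place in the transcript were not analysed here, nor was whether other probes cover MFAP5.

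Microfibrils are fibrillin-based filaments of the extracellular matrix that surround elastic fibres and hold latent growth factors, and MFAP5 binds to them. N6-methyladenosine (m6A) is a modification of adenosine within RNA that methyltransferases write and that the demethylase ALKBH5 removes. An antibody against m6A separates methylated from unmethylated molecules, so that a transcript can gain signal in the bound fraction through a larger methylated share or through more RNA in all.

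PC9 cells, an established human lung adenocarcinoma line, were cultured for 24 h and then transfected at 15 nM with siALKBH5#1, siALKBH5#3 or the control siRNA, siNC. Total RNA was taken 96 h after transfection from 3 biological replicates in each group, and each replicate was hybridized to 1 array. The unfragmented RNA was separated into the fraction bound by the anti-m6A antibody (IP, labeled with Cy5) and the supernatant (Sup, labeled with Cy3), and no dyes were swapped. The question put to MFAP5 was how much of its change lay in the amount of RNA in both fractions and how much in the share that was methylated. The siRNAs lower ALKBH5 without removing its gene. The abundance of ALKBH5 and of markers of lung epithelial cells and fibroblasts was not analysed here.

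The primer pairs that the study designed for MFAP5 are shown because they mark 3 parts of the transcript (5′UTR with primer1, coding region with primer2, 3′UTR with primer3), whereas the array gives a single value for the unfragmented molecule.
primer1 forward: agagagacacattcagcagcc
primer1 reverse: ggtcccaagagcgacatattg
primer2 forward: aatgtggatttgcagagacc
primer2 reverse: cctccttcctctcacccata
primer3 forward: tggggctaaagcatgaggac
primer3 reverse: acttcccgactagacaactgc

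Before any scaling, the background-subtracted Sup signal of MFAP5 was 20.9, 13.6 and 12.9 on the siNC arrays, with a mean of 15.8 ± 4.45 (SD, n = 3). The siALKBH5#1 arrays gave 47.8, 40.2 and 58.8 (mean 49.0 ± 9.37), and the siALKBH5#3 arrays gave 81.4, 70.2 and 67.2 (mean 72.9 ± 7.47). The groups did not overlap, with siNC lowest and siALKBH5#3 highest, and on each of the 9 arrays the signal was well above background. MFAP5 was chosen with its Sup values known. The share of all RNAs whose groups separate in this way is not given here, so nothing is concluded from the separation. In bulk RNA of this kind, more cells that express MFAP5 and more MFAP5 RNA per cell cannot be told apart. MFAP5 is a dim probe, with a local Sup background of 9 in siNC to set beside these signals.

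The arrays differed in brightness, and according to the labels both fractions received spike-in RNA in the same amount before amplification. Whether this held on every array was not tested. The mean signal of 12 spike-in probes in the Sup channel (geometric mean) was 636, 749 and 1400 on the siNC arrays, 628, 388 and 4296 with siALKBH5#1, and 979, 754 and 652 with siALKBH5#3. The IP channel gave 180, 339 and 1347 on the siNC arrays, 202, 109 and 3337 on those of siALKBH5#1, and 440, 699 and 220 on those of siALKBH5#3. The array of siALKBH5#1 replicate 3 thus stood apart in both channels. On the log2 scale its 12 spike-in probes lay 2.28 above their own means over the 9 arrays in the Sup channel, but unevenly, from 0.36 to 4.16, and from -0.037 to 5.02 in the IP channel. The mean correlation of its Sup values with those of the other arrays was 0.958, against 0.977 to 0.985 for the others. The part that these features have in the MFAP5 values was not tested, and the values are given with and without this array.

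**Figure D1:**
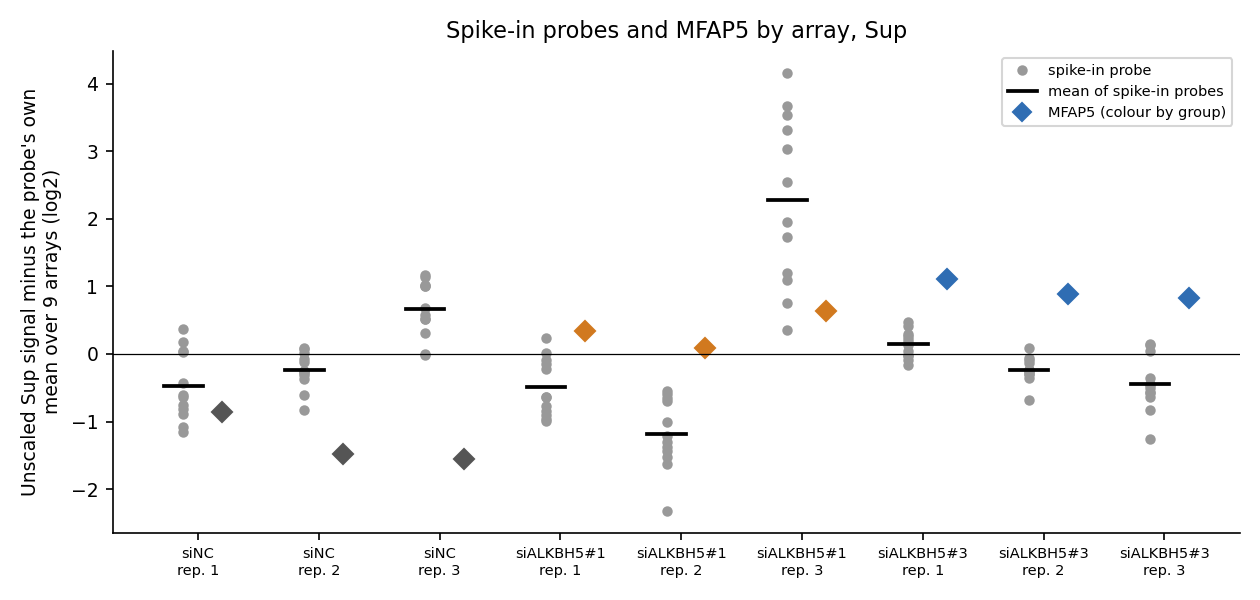
Deviation of the unscaled log2 Sup signal from its own mean over the 9 arrays, by array, for each of the 12 spike-in probes and for MFAP5. On siALKBH5#1 replicate 3 the spike-in probes lay between 0.36 and 4.16 above their means.

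Divided by the spike-in mean of the same array and channel, the Sup signal of MFAP5 was 3.29%, 1.81% and 0.921% of that mean in siNC. The siALKBH5#1 arrays gave 7.61%, 10.4% and 1.37%, and the siALKBH5#3 arrays 8.32%, 9.31% and 10.3%. All 3 siALKBH5#3 arrays and 2 of 3 siALKBH5#1 arrays lay above the highest siNC array, while siALKBH5#1 replicate 3 lay within the siNC range. The group means were 2.01% ± 1.20 (SD, n = 3) in siNC, 6.45% ± 4.61 with siALKBH5#1 and 9.31% ± 1.00 with siALKBH5#3. The siRNA groups, neighbours in this order, did not differ beyond the spread of siALKBH5#1, which came from replicate 3. With the median RNA of each array set to 0 in place of the spike-in mean, the log2 Sup signal of MFAP5 was 4.27, 3.99 and 3.56 in siNC, 5.76, 6.01 and 5.01 with siALKBH5#1, and 6.15, 6.23 and 6.19 with siALKBH5#3. On that scale the groups again did not overlap, which is likewise a description without the share of other RNAs that do so. MFAP5 thus stood higher than in siNC within each siALKBH5#1 array when read against the other RNAs, and in 2 of 3 when read against the spike-in probes.

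**Figure D2:**
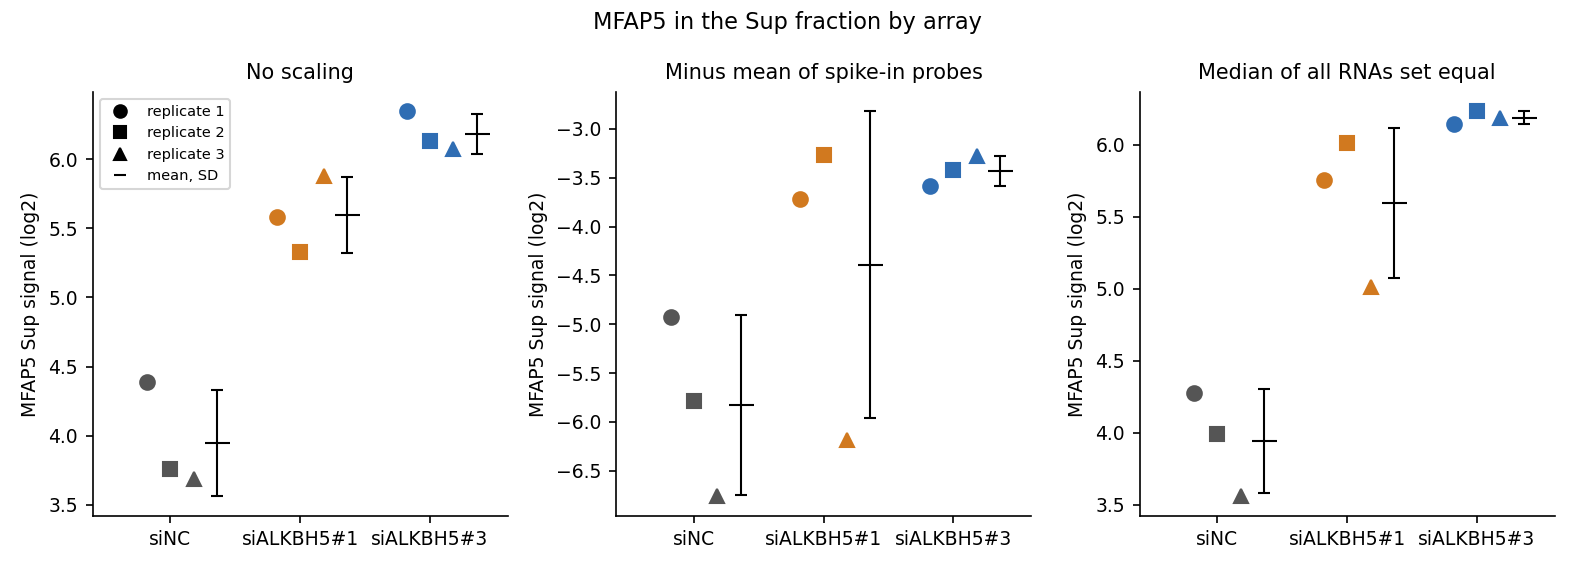
Log2 Sup signal of MFAP5 by group, unscaled, minus the spike-in mean, and with the median RNA of each array set equal. Points are arrays marked by replicate and bars are mean ± SD (n = 3), and siALKBH5#1 replicate 3 falls among the siNC arrays only after scaling by the spike-in probes.

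In limma's model of the 3 groups, the log2 Sup change of MFAP5 was 1.43 with siALKBH5#1 (standard error 0.69), or 2.70-fold, and 2.40 with siALKBH5#3 (standard error 0.69), or 5.26-fold. The median of all 39893 RNAs in the model was itself shifted by -0.18 with siALKBH5#1 and by 0.11 with siALKBH5#3, so that the MFAP5 change relative to the median RNA was 1.61 and 2.29. These changes are large against the other RNAs, but with siALKBH5#1 the spread between replicates was of the same size. Without siALKBH5#1 replicate 3 the change with siALKBH5#1 was 2.33, or 5.04-fold, close to that with siALKBH5#3. Scaling by each of the 12 spike-in probes alone gave between 0.90 and 1.79 with siALKBH5#1 and between 2.07 and 3.07 with siALKBH5#3. Scaling by the human GAPDH and PGK1 control probes gave 1.59 and 2.55. A model-based background correction (normexp with an offset of 50, of the order of the MFAP5 signal itself) gave smaller changes, 0.36 and 1.02. Every one of these settings put the Sup signal of MFAP5 above siNC with both siRNAs, but they process the same arrays in different ways and are not independent. The array of siALKBH5#1 replicate 1 was scanned apart from the other 8, with no other array in its scan to compare, and without it the Sup change with siALKBH5#1 was 2.14-fold.

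Among the 39893 RNAs with Sup well above background on all arrays and at least 2 values in each group, 44 had a larger Sup change than MFAP5 with siALKBH5#1 (0.110%) and 17 with siALKBH5#3 (0.0426%). These ranks, 45 and 18, describe the contrasts that MFAP5 was chosen in, and they depend on single arrays. Without siNC replicate 3 the shares were 0.594% and 0.0777%, and without siNC replicate 1 they were 0.0377% and 0.0226%. The siALKBH5#1 share was also 0.300%, 0.577% and 0.0476% without siALKBH5#1 replicate 1, 2 or 3. Only 4 RNAs had a larger change with both siRNAs, which share the siNC arrays. More than 2-fold above the median RNA, as MFAP5 was in both contrasts, were 329 RNAs with siALKBH5#1 (0.825%) and 507 with siALKBH5#3 (1.27%). With siALKBH5#1 the middle 50% of RNAs lay between -0.40 and 0.048, the highest 1% began at 0.78 and the largest change was 3.15. With siALKBH5#3 the corresponding values were -0.094 and 0.31, 1.18, and 3.24. MFAP5 was among the highest 1% in both. The RNAs next to it in the order were ASHG19AP1B10798516511 (1.43) above and ASHG38SM110012213111 (1.43) below with siALKBH5#1, and ASHG19AP1B10019354411 (2.41) above and ASHGV4000245211 (2.37) below with siALKBH5#3.

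**Figure D3:**
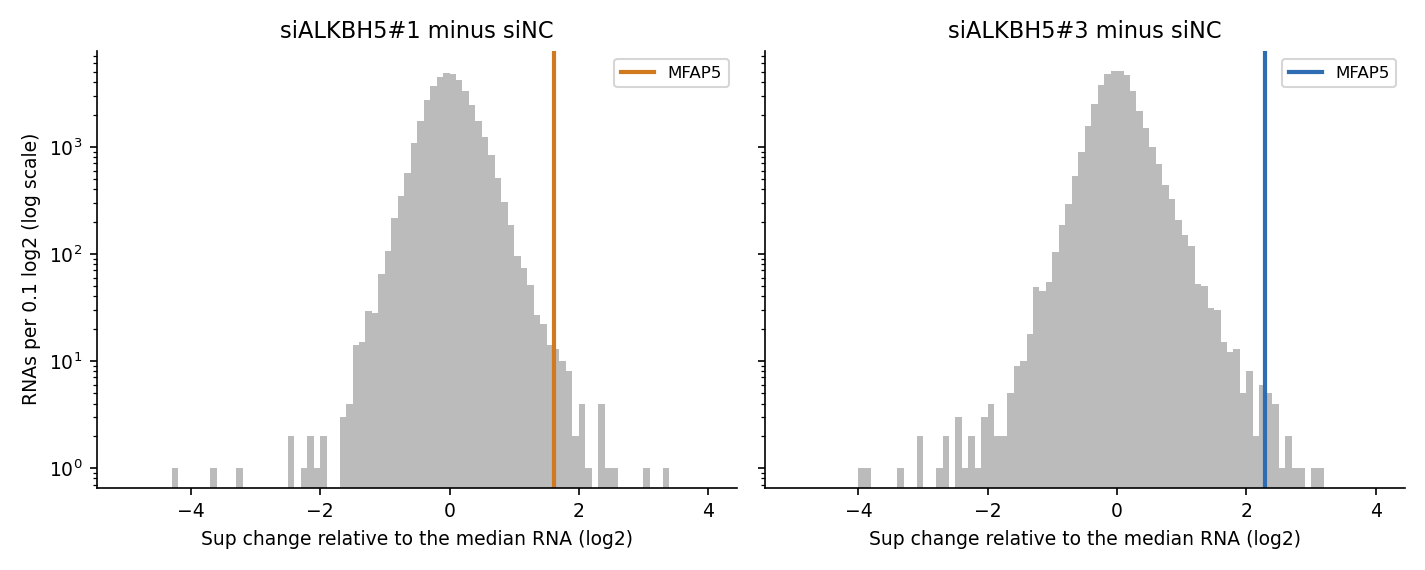
Number of RNAs (log axis) by log2 Sup change relative to the median RNA, for each siRNA against siNC, with a line at MFAP5. MFAP5 lies at 1.61 with siALKBH5#1 and at 2.29 with siALKBH5#3, in the upper tail of 39893 RNAs.

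On 5 of the 6 knockdown arrays taken singly, few RNAs had a larger change than MFAP5. These arrays make up the group ranks and share the siNC mean, so their likeness is a description only. Against the siNC mean, 39 and 17 RNAs had a larger change than MFAP5 on siALKBH5#1 replicates 1 and 2, and 27, 6 and 17 on the siALKBH5#3 arrays. On siALKBH5#1 replicate 3 there were 7553 (19.1%), although MFAP5 still lay 0.97 above the median RNA of that array. Relative to the median RNA, the change was 1.90 and 2.10 on siALKBH5#1 replicates 1 and 2, and 2.18, 2.32 and 2.34 with siALKBH5#3. The siALKBH5#3 arrays were thus close to each other, and the siALKBH5#1 arrays were not. Under the normexp correction, 5.36% of RNAs had a larger change than MFAP5 with siALKBH5#1 and 0.479% with siALKBH5#3. Without a filter on dim RNAs these shares were 0.316% and 0.158%.

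With spike-in scaling of all 9 arrays, no RNA passed the test of the reported limma model after adjustment. This was also so without scaling and with the spike-in median, while some other scalings gave more. After Benjamini-Hochberg adjustment in limma, 0 of 39893 RNAs (0%) passed 0.05 in any of the 3 contrasts with spike-in scaling. Between the siRNAs, 352 RNAs were higher and 279 lower with the median RNA set equal, and 942 higher and 95 lower with GAPDH and PGK1 scaling, which also gave 351 higher and 9 lower RNAs for siALKBH5#3 against siNC. How many RNAs pass thus depends on the scaling, and with spike-in scaling also on the model and on a single array. At an unadjusted p under 0.05 limma gave 206 RNAs for siALKBH5#1, 496 for siALKBH5#3 and 1046 for the siRNAs against each other. The methods' t-test on the same values gave 327, 2712 and 1034 at that level, 58, 697 and 153 at the threshold of the methods (a fold change above 1.5 with an unadjusted p under 0.01), and 0, 3 and 0 after adjustment. Without siALKBH5#1 replicate 3, limma gave 174 higher and 59 lower RNAs with siALKBH5#1, 177 and 28 with siALKBH5#3, and 197 and 262 between the siRNAs.

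The direct comparison of the siRNAs was not used in choosing MFAP5 and was tested. With siALKBH5#3 the log2 Sup signal was 0.96 higher than with siALKBH5#1 (standard error 0.69, 95% interval -0.53 to 2.45, limma adjusted p = 0.968), or 0.65 relative to the median RNA, which was shifted by 0.31. In this contrast 2005 RNAs (5.03%) had a larger change than MFAP5. The interval holds values from a lower level to one several times as high, and 0 of 3 siALKBH5#3 arrays lay above the highest siALKBH5#1 array. A two-sided exact permutation test over the 3 arrays of each group gave p = 0.5, where the smallest p that this design allows is 0.1. Unscaled, with the median RNA set equal, or scaled by GAPDH and PGK1, all 3 siALKBH5#3 arrays lay above all siALKBH5#1 arrays, with differences of the group means of 0.59, 0.59 and 0.96 and the smallest exact permutation p of 0.1 each. Without siALKBH5#1 replicate 3 the difference was 0.063 (limma adjusted p = 0.968). Without siALKBH5#1 replicates 1 and 3, which left that group with a single array, it was -0.16 (limma adjusted p = 0.946). Over all settings run the limma adjusted p lay between 0.220 and 1.00. Whether MFAP5 RNA was more abundant with siALKBH5#3 than with siALKBH5#1 therefore rests on the scaling and on a single array.

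In the IP fraction the background-subtracted signal of MFAP5 was 0.0333, 2.31 and 3.85 on the siNC arrays, and none of the 3 lay well above background. The siALKBH5#1 arrays gave 30.5, 12.5 and 16.7, with replicate 3 not well above background, and the siALKBH5#3 arrays gave 41.9, 52.1 and 28.4, each of them well above it. The faintest RNA probe counted as well above background in IP had a signal of 9.41, 10.1 and 13.5 on the siNC arrays, 8.67, 8.47 and 22.0 with siALKBH5#1, and 10.3, 10.7 and 9.83 with siALKBH5#3. MFAP5 in the IP fraction of siNC is therefore known only as a limit.

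**Figure D4:**
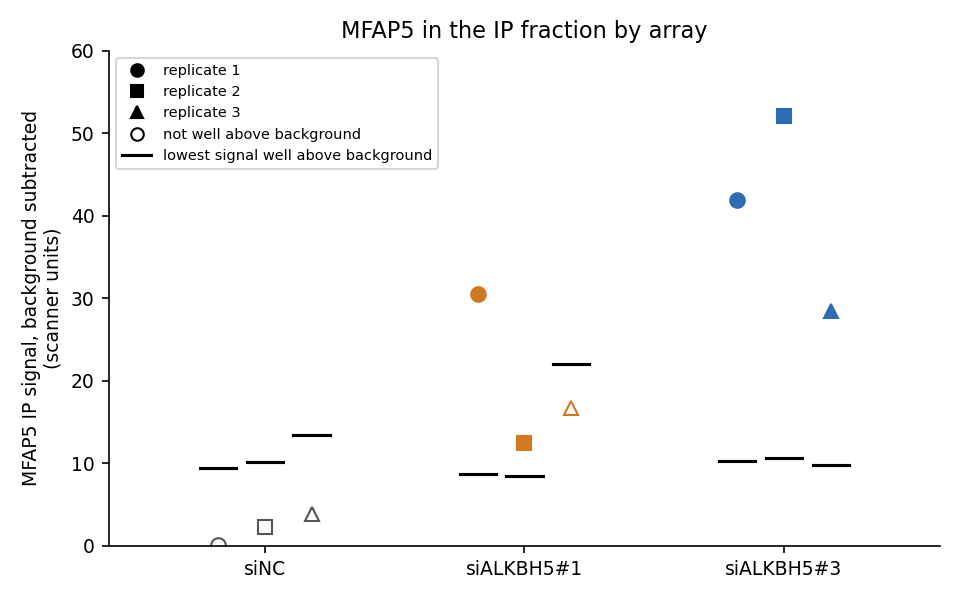
Background-subtracted IP signal of MFAP5 by array, with open points where it was not well above background and a bar at the faintest IP signal that counted as well above background on the same array. The 3 siNC arrays and siALKBH5#1 replicate 3 lie below their bars.

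As a share of the spike-in mean, the IP signal of MFAP5 was 15.1%, 11.5% and 0.500% on the siALKBH5#1 arrays and 9.52%, 7.45% and 12.9% on the siALKBH5#3 arrays, while the limit in siNC was 5.23%, 2.98% and 0.999%. Against this limit the IP signal was at least 3.89-fold higher with siALKBH5#3, measured on 3 of 3 arrays (1.96 on the log2 scale). This bound was 1.30 without siNC replicate 3 and 0.75 under the normexp correction. With siALKBH5#1 the IP signal was measured on 2 of 3 arrays, and with replicate 3 at its measured value the difference from the limit was 0.82 on the log2 scale, which is not a bound because that value was not well above background. This difference was -0.062 without siALKBH5#1 replicate 1, and without replicate 3 it was 2.40. A lower bound on the rise of MFAP5 in the IP fraction was thus above 0 with siALKBH5#3, at a size that depended on the setting, and with siALKBH5#1 the result depended on which array was left out.

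RNAs that went from no IP signal above background in siNC to a signal on all siALKBH5#3 arrays were counted as a description. MFAP5 was chosen on a rise of its level with both siRNAs, so these counts give no support to that rise. Of 39962 RNAs with Sup well above background on all arrays, 9678 had an IP signal above background on no siNC array, and 309 of these had it on all siALKBH5#3 arrays. Of these 309, 3 had a larger lower bound than MFAP5. They passed only through the siALKBH5#3 arrays, where their IP signal is high, so nothing is concluded from this place. Only 12 of the 9678 had an IP signal above background on all siALKBH5#1 arrays, and 39 had it, as MFAP5 did, on at least 2 siALKBH5#1 arrays and all siALKBH5#3 arrays.

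The sum of the scaled IP and Sup signals served as a measure of the total MFAP5 RNA. The siALKBH5#1 arrays gave 22.7%, 21.8% and 1.87% of the spike-in means, and the siALKBH5#3 arrays gave 17.8%, 16.8% and 23.2%. In siNC it was at most 8.52%, 4.79% and 1.92% with IP at its limit, and 3.31%, 2.49% and 1.21% with IP at its measured value. Every siALKBH5#3 array lay above the highest siNC limit, and so did siALKBH5#1 replicates 1 and 2 but not replicate 3. Total MFAP5 RNA was at least 4.46-fold higher with siALKBH5#3 (2.16 on the log2 scale). With siALKBH5#1 it was at least 2.05-fold higher (1.04 on the log2 scale) when replicate 3, whose IP was not well above background, entered with its Sup signal alone, and 1.19 on the log2 scale with its measured IP included. With each array left out in turn, the lower bound lay between 0.35 and 2.38 with siALKBH5#1 and between 1.58 and 2.65 with siALKBH5#3. Under the normexp correction the value with siALKBH5#3 fell to 0.86, and with the median signal without background correction to 1.52. The corresponding values for siALKBH5#1, with the IP of replicate 3 at its measured value, were 0.35 and 0.82. The lower bound was highest for siALKBH5#1 without replicate 3, at least 5.20-fold, and lowest without replicate 1. With the measured siNC signals in place of the limit, and every IP signal at its measured value, the changes were 3.15 with siALKBH5#3 and 2.18 with siALKBH5#1. The lower bound on the total thus lay above 0 with both siRNAs whichever array was left out, but its size depended on the background correction, and with siALKBH5#1 on single arrays.

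The methylation level of MFAP5, IP/(IP + Sup) from the scaled signals, is open to dye bias, as each fraction was always labeled with the same dye. It was 66.5%, 52.5% and 26.7% on the siALKBH5#1 arrays and 53.4%, 44.4% and 55.6% on those of siALKBH5#3, with siALKBH5#1 replicate 3 at most 32.5% when its IP signal is set to the limit. In siNC it was at most 61.4%, 62.3% and 52.0%, and 0.560%, 27.4% and 23.7% with the IP signals that were not well above background taken at their measured value. Knockdown levels lay below the highest siNC limit, 62.3%, on 5 of 6 arrays, with siALKBH5#1 replicate 1 above it. Most of them lay above the lowest siNC limit, 52.0% on siNC replicate 3. These were 66.5% and 52.5% with siALKBH5#1, and 53.4% and 55.6% with siALKBH5#3. Only 26.7% with siALKBH5#1 and 44.4% with siALKBH5#3 lay below that lowest limit. The mean level was 48.6% ± 20.2 in the siALKBH5#1 group and 51.1% ± 5.90 in the siALKBH5#3 group, against an upper limit of 58.6% ± 5.67 in siNC (SD, n = 3 each). No fold change of the level can be bounded from these means. On the log2 scale the lower bound on the change of IP over Sup was -0.44 with siALKBH5#3, because the Sup change was larger than the bound on the IP change. With siALKBH5#1, and replicate 3 at its measured IP, the same difference was -0.61. With siALKBH5#3 the bound was below 0 in all 16 alternative settings that could change it, between -0.63 and -0.13. With siALKBH5#1 the difference was below 0 in 16 of 17 such settings, and without siALKBH5#1 replicate 3 it was 0.064, with a level of 59.5% against the siNC limit of 58.6%. With all 9 arrays, the Sup signals thus put MFAP5 RNA higher with both siRNAs, and no lower bound above 0 was obtained for its methylated share. For siALKBH5#1 that statement turns on replicate 3, although the bound without it lies close to 0. The IP limit alone puts the siNC level at up to 52.0% to 62.3%, whatever the true share. Only knockdown levels about as high or higher could have given a bound above 0. Whether the methylated share of MFAP5 rose with either siRNA is therefore not decided. The deposited siNC levels of MFAP5, against which its rise was read, came from IP signals that were not well above background. The part that this has in the deposited rise was not tested.

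**Figure D5:**
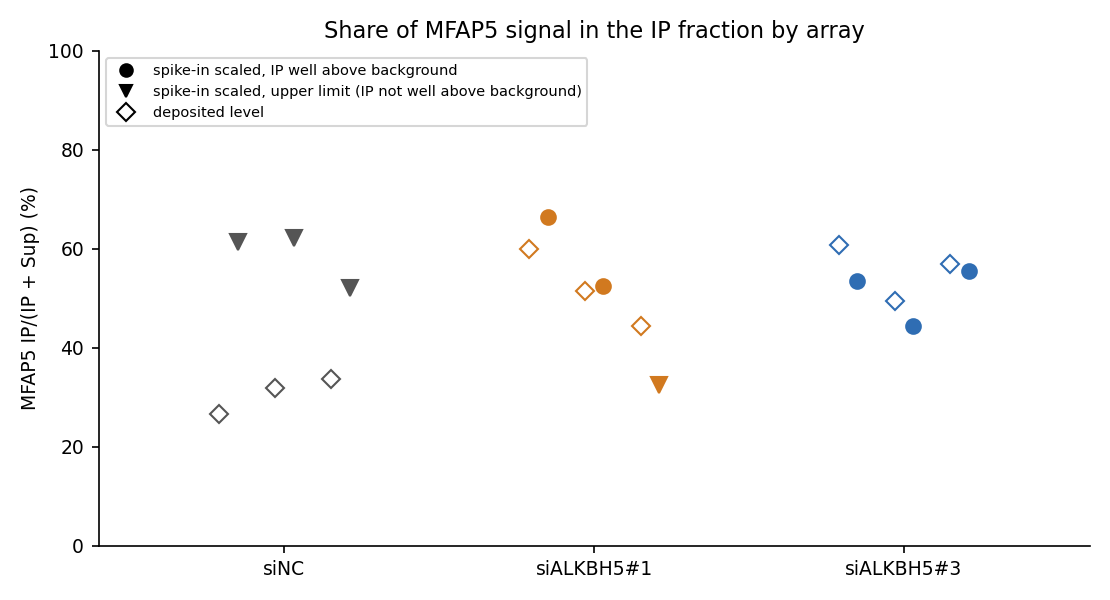
Methylation level of MFAP5 in percent by array, with circles for IP/(IP + Sup) from spike-in scaled signals, triangles for an upper limit where IP was not well above background (siNC, and siALKBH5#1 replicate 3 at 32.5%) and open diamonds for the deposited level. The siNC upper limits are 52.0% to 62.3%. The highest lies above 5 of the 6 knockdown levels, and the lowest only above 26.7% (siALKBH5#1) and 44.4% (siALKBH5#3). The deposited siNC levels are 26.7% to 33.7%.

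The levels that the authors deposited for MFAP5 were 26.7%, 31.8% and 33.7% in siNC, 59.8%, 51.5% and 44.4% with siALKBH5#1, and 60.8%, 49.4% and 56.9% with siALKBH5#3, and the groups chosen by them did not overlap. On each array, the log2 ratio of IP to Sup behind them equalled that of the scanner's dye-normalized signals plus a constant, between -0.030 and 0.34, and where the constants come from was not tested. The dye-normalized IP signal of MFAP5 in siNC was 25.1, 14.0 and 7.99. On siNC replicate 1 the background-subtracted signal was 0.0333, too close to 0 for a ratio over it to be read. For the RNAs well above background in IP, the median ratio of dye-normalized to background-subtracted signal was 11.9, 5.60 and 1.76 on the siNC arrays. Divided by these medians, the MFAP5 signals were 2.12, 2.49 and 4.54, beside a local IP background of 18, 19 and 20. The deposited siNC levels thus stand on IP signals not well above background. Whether the scanner software put a substitute value in place on siNC replicate 1 was not tested. Of 30601 RNAs with a deposited level, 25 had a larger log2 change of it than MFAP5 with siALKBH5#1 and 16 with siALKBH5#3. An IP signal above background on no siNC array was found for 13 of these 25 and 15 of these 16, and for 2.98% (913) of all RNAs with a deposited level. A low siNC IP signal is itself part of a large rise of this level, so nothing is concluded from these shares. The counts describe the deposited levels and are not a finding on methylation, and the source of the large changes was not tested.

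The neighbours of MFAP5 on the array surface had scaled Sup changes centred near the median RNA, with some of them higher. Among 55 tested RNAs whose spots lay within 4 rows and 4 columns of the MFAP5 spot, the change relative to the median RNA had a median of 0.052 with siALKBH5#1 and 0.097 with siALKBH5#3. The highest of them was 0.78 and 1.36, below MFAP5 at 1.61 and 2.29. The GAPDH and PGK1 control probes changed by -0.15 with each siRNA on average. On siALKBH5#1 replicate 3 their log2 difference from the siNC mean was -1.28, and that of MFAP5 was -0.36. These comparisons of group means are a description and do not hold for siALKBH5#1 replicate 3. Few RNAs anywhere on the array had a larger change than MFAP5, which was chosen with its Sup values known. Nothing is therefore concluded from its place above these neighbours and controls, and an effect of the place on the array was not tested.

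Of 20 further genes of microfibrils and elastic fibres, only LOX and LOXL2, enzymes of the lysyl oxidase family that cross-link collagen and elastin, had a named probe. The Sup signal of LOX was 7.87%, 5.08% and 3.68% of the spike-in mean in siNC, 31.0%, 38.5% and 7.10% with siALKBH5#1, and 3.59%, 3.01% and 4.36% with siALKBH5#3. Its log2 change relative to the median RNA was 2.13 with siALKBH5#1 (limma adjusted p = 1) and -0.66 with siALKBH5#3 (limma adjusted p = 1.00), and its highest values were on siALKBH5#1 replicates 1 and 2. The difference of LOX between the siRNAs was -2.50 on the log2 scale, with a limma adjusted p of 0.806. LOXL2 changed by 0.10 and -0.37 relative to the median RNA (limma adjusted p = 1 and 1.00). Neither gene passed the test in any contrast, as was so for all 39893 RNAs with this scaling, and neither had the MFAP5 pattern of a higher Sup signal with both siRNAs. The other 10 genes of the study's list that holds MFAP5 were chosen by the study on these arrays. Of the 9 that could be tested, the Sup change lay between -0.63 and -0.039 with siALKBH5#1 and between -0.31 and 0.46 with siALKBH5#3, and 2 and 3 lay above the median RNA. None of these 9 had a Sup rise of the size of that of MFAP5. Few RNAs of any kind had one, and the list was chosen on the methylation level, so nothing is concluded from this.

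The likeness of other RNAs to MFAP5 was described by Pearson's r of the scaled log2 Sup signal over the 9 arrays, without a test. Among 39398 RNAs with a value on every array the median r was 0.60, with all of them sharing the arrays and their scaling, and 335 RNAs had an r above 0.9. Only 56 of these 39398 RNAs have a gene name. The named RNAs most like MFAP5 were MTDH (r = 0.87), ZZZ3 (0.82), RPAP3 (0.82), RND3 (0.80) and RP11-112J3.15 (0.78), at ranks 807, 2102, 2358, 2965 and 4093. With the median RNA of each array set equal, their r was 0.16, 0.61, 0.63, 0.51 and 0.63, lowest for MTDH. The median r of the compared RNAs was -0.11 on that scale, and ranks on it are not given here. The unnamed probes ASHG19AP1B12411191911 and ASHG19AP1B11876087011 had the highest r of all, 0.99 and 0.98, and kept 0.99 and 0.87 with the median RNA set equal.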

How the data were processed

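The authors deposited, for 9 arrays, the output of Agilent Feature Extraction 11.0.1.1, which gives the intensity of a spot in Cy5 and Cy3 as raw, background-subtracted and dye-normalized values. A deposited table by the authors gives the methylation level, IP/(IP + Sup), as a fraction, whose log2 ratio of IP to Sup differs from the dye-normalized one only by an offset for each array. The study's methods name a spike-in normalization of the raw values.

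Background-subtracted signals without dye normalization were used, with dye-normalized signals as an alternative. For each array and channel, the log2 signals of 12 spike-in probes were averaged and taken off every value. Of 102 spike-in probes, 13 were well above background throughout, and 1 of them lost all its spots to outlier marks on some arrays, so that means over 13 would not compare between arrays. Outlier spots and controls were dropped, and 0 spots were saturated. RNAs with Sup well above background on every array (39962) and at least 2 values per group (39893, 494 with a missing value) entered 1 model of the 3 groups in limma (version 3.58.1, R version 4.3.3), with Benjamini-Hochberg adjustment. The fitting step was tested on simulated data. Figures were drawn with matplotlib 3.10.9 in Python 3.11.15.

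A siNC IP signal below the faintest RNA probe counted as well above background on the array was set to the signal of that probe, and changes against it are lower bounds where the siRNA arrays were well above background. Depth on an array is signal over background: 67.1% to 86.5% of RNA probes were well above background in Sup and 37.5% to 56.9% in IP, and precision is limited by how many arrays there are. The MFAP5 probe was the only probe whose deposited levels gave the values of the study's list. The genes to be named were MFAP5, ALKBH5, cell type markers and 20 microfibril and elastic fibre genes, where a table names their probes. ALKBH5 and the cell type markers had no named probe and were not analysed. Also given were the 5 named and 2 unnamed probes with the highest r with MFAP5. The probes directly above and below it in rank, and the study's list by range, were given too. All 50 probes with a RefSeq accession matched a symbol. Members and lists were chosen with earlier results of these data known. Other signals, scalings, filters, floors, tests and models, and each array left out in turn, were tried as alternatives. Scaling by GAPDH and PGK1, by each spike-in probe alone or by all 13 spike-in probes, leaving out siALKBH5#1 replicates 1 and 3 together, and a total from Sup alone where a siRNA array had no IP well above background, were added after seeing the data.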

Additional observations from a re-analysis of the deposited data

How the results depend on the processing

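Over all alternatives 408 values were computed, of which 44 repeat the reported value because the array left out does not enter it. Of the other 364, 308 kept their direction and lay within the spread between arrays or within 1.5 times the count. This tally holds every siALKBH5#1 share of RNAs with a larger change than MFAP5. As these ran from 0.0377% to 5.36%, the tally says little about their stability. The Sup change of MFAP5 stayed above 0 in 19 of 19 settings that could change it with siALKBH5#1 and in 18 of 18 with siALKBH5#3. All settings reuse the same arrays for a gene chosen with these values known, so this tally gives no support to the rise. Unless the way a setting is built shows it, what moved a value was not tested.

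With normexp, whose offset of 50 narrows differences between dim signals, the Sup change of MFAP5 was 0.36 with siALKBH5#1 and 1.02 with siALKBH5#3, and 0.479% of RNAs had a larger change with siALKBH5#3. Without a filter on dim RNAs this share was 0.158%. The methylation level of MFAP5 in siNC (upper limit), siALKBH5#1 and siALKBH5#3 was 41.6%, 28.3% and 35.4% without scaling and 41.7%, 31.2% and 32.9% with the median RNA set equal, and in the deposited levels the siNC value was 30.7%. In these settings too, the siNC limit was not below the siRNA levels, except in the deposited levels.

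RNAs with a limma adjusted p under 0.05, 0 in each contrast in the model reported, rose with some other scalings. Without scaling, with the spike-in median and with all spike-in probes they stayed at 0. Higher and lower RNAs were, for siALKBH5#1 against siNC, siALKBH5#3 against siNC and siALKBH5#3 against siALKBH5#1 in this order, 4 and 1, 87 and 21, and 352 and 279 with the median RNA set equal, 6 and 4, 58 and 19, and 372 and 199 with the 75th percentile, and 4 and 1, 351 and 9, and 942 and 95 with GAPDH and PGK1. With an intensity trend they were 6 and 3 for siALKBH5#3 against siNC and 5 and 8 between the siRNAs. With Sup above background in at least 1 group, 2 RNAs were higher with siALKBH5#3 than in siNC and 1 than with siALKBH5#1. The methods' t-test gave 3 higher RNAs with siALKBH5#3. The adjusted p of MFAP5 between the siRNAs was not under 0.05 in any of 25 settings.

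The correlations of deviations from the group means gave no uniform pairing by replicate number. For siNC and siALKBH5#1 they were 0.65, -0.055 and 0.61 with the same number, and -0.63 to 0.50 with different numbers. For siNC and siALKBH5#3 the ranges were -0.52 to -0.15 and -0.075 to 0.43, and for the siRNAs -0.47 to -0.18 and -0.25 to 0.47. Whether the arrays were paired in the experiment was not tested. With the replicate number as a block, the counts were 2 and 5, 23 and 11, and 45 and 13, and MFAP5 differed by 0.96 between the siRNAs (limma adjusted p = 0.969).

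Without siALKBH5#1 replicates 1 and 3, the Sup change of MFAP5 with siALKBH5#1 was 2.56 and the difference between the siRNAs reversed to -0.16. The lone siALKBH5#1 array was assumed to vary like the other groups. There, 1 RNA was higher with siALKBH5#1, 61 were higher and 14 lower with siALKBH5#3, and 3 were lower with siALKBH5#3 than with siALKBH5#1. With each array left out in turn, the Sup change of MFAP5 was 0.87 to 2.33 with siALKBH5#1, 1.93 to 2.85 with siALKBH5#3 and 0.063 to 1.52 between them. The IP difference from the siNC limit was -0.062 to 2.40 with siALKBH5#1, reversed without siALKBH5#1 replicate 1, and 1.30 to 2.49 with siALKBH5#3. It is a lower bound with siALKBH5#3, and with siALKBH5#1 only without replicate 3, whose IP otherwise enters at its measured value. Levels were 56.7% to 61.8% in siNC, 39.6% to 59.5% with siALKBH5#1 and 48.9% to 54.5% with siALKBH5#3. Total RNA was higher by 0.58 to 2.38 and by 1.58 to 2.65, and with the Sup signal alone on siALKBH5#1 replicate 3 the siALKBH5#1 range began at 0.35. The share of RNAs with a larger change was 0.0377% to 0.594% and 0.0226% to 0.0777%. Counts of higher and lower RNAs were 0 to 174 and 0 to 59 with siALKBH5#1, 0 to 177 and 0 to 28 with siALKBH5#3, and 0 to 197 and 0 to 262 between the siRNAs, each highest without siALKBH5#1 replicate 3.

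MFAP5 had 1 spot, a dim Sup signal in siNC and an IP signal not well above background there, and 3 arrays per group limit every comparison. Scaling rests on spike-in probes that disagree on siALKBH5#1 replicate 3.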
